A study of Mus musculus with 6 samples.

Results

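Aminoacyl-tRNA synthetases, serine and one-carbon enzymes, amino acid transporters and ATF4 branch genes of the stress response were measured in vAbl transformed mouse pro-B cells. Untreated cells were compared with cells given tamoxifen, a treatment meant to delete Foxo1. The group was a fixed list of 38 genes, of which 35 could be read from the array by a probe set that carries 1 gene symbol, out of 19937 genes measured in that way. The list held 20 tRNA synthetase genes, 7 enzymes of serine, one-carbon and asparagine metabolism, 6 transporters and 5 ATF4 branch genes. Aars, Dars and Mars had no probe set with that single symbol and were skipped. A probe set named Mars1, the current symbol of the methionyl-tRNA synthetase gene, differed by -0.08 ± 0.06 (SE) on the log2 scale, tamoxifen minus untreated (limma adjusted p of 1.00). It was added after its value was seen.

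All 6 samples were total RNA of vAbl transformed pro-B cells of strain C57/BL6 with the genotype Foxo1f/f; ERCre, that is, with loxP-flanked Foxo1 alleles and a Cre recombinase that tamoxifen switches on. Cells carrying the v-Abl oncogene grow in culture arrested at the pro-B stage. They were grown in RPMI medium with serum, L-glutamine and 2-mercaptoethanol. The 3 untreated samples had received no tamoxifen, and the 3 tamoxifen samples had received 1 µM tamoxifen for 2 days. The labels name no separate cultures or clones, so p-values measure the spread between these samples only, which may be technical. Cells given tamoxifen without loxP-flanked Foxo1 are not part of the data used here, so the drug, the recombinase and the deletion cannot be told apart.

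Cells charge each tRNA with its amino acid through a dedicated synthetase, and they make serine from a glycolytic intermediate through Phgdh, Psat1 and Psph. When uncharged tRNA or unfolded protein accumulates, kinases phosphorylate the initiation factor eIF2, general translation slows and the transcription factor ATF4 is made. ATF4, with C/EBP partners, then drives transcription of many synthetases, of Asns and the serine pathway, and of amino acid transporters. Proliferating lymphoid cells depend on these genes to supply protein and nucleotide synthesis.

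ATF4 binds a composite sequence, the C/EBP-ATF element, and the members that hold its core near their start are shown here because this sequence is the known link between ATF4 and genes of this kind. Promoter windows of 300 bases, 250 before and 50 after the gene start, were taken from RefSeq (build GRCm38.p6), and 26 of the 35 genes matched by symbol, with 28 windows. The core TGATGNAA, read on both strands, was found in 9 of these 28 windows (32.1%), belonging to 9 genes, and in 1304 of all 32851 windows (3.97%). In the stretches of 30 bases below, written 5′ to 3′ on the gene's strand, capitals mark the core or its reverse complement.
Asns, chr6:7693214-7693243, minus strand: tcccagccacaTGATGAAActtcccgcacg
Chac1, chr2:119351038-119351067, plus strand: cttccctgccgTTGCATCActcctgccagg
Gars, chr6:55037960-55037989, plus strand: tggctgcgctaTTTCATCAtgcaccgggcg
Iars, chr13:49682126-49682155, plus strand: cactgtcagtaTTGCATCAcctccagacgc
Slc1a4, chr11:20332699-20332728, minus strand: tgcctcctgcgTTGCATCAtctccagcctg
Slc7a11, chr3:50443661-50443690, minus strand: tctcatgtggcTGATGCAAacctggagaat
Slc7a11, chr3:50443642-50443671, minus strand: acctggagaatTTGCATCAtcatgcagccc
Tars, chr15:11399655-11399684, minus strand: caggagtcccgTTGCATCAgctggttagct
Trib3, chr2:152344028-152344057, minus strand: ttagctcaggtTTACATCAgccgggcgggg
Yars, chr4:129189895-129189924, plus strand: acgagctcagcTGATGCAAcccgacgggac

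In 6 of the 9 genes the core began before the annotated start, at 23 bases in Asns, 193 in Chac1, 30 in Gars, 4 in Slc1a4, 15 in Tars and, for the 2 copies of Slc7a11, 66 and 47. In Yars, Iars and Trib3 it began 4, 8 and 15 bases into the transcript. The 2 copies in Slc7a11 face each other on opposite strands. A forkhead core, GTAAACA on either strand, was found in 1 of the 28 member windows (3.57%), that of Slc7a11, and in 3.65% of all windows. A match is a run of letters and not a measured binding site. For Asns, a well known ATF4 target, the upstream sequence (chr6:7693210-7693459, minus strand, core in capitals) read as follows.
Asns upstream: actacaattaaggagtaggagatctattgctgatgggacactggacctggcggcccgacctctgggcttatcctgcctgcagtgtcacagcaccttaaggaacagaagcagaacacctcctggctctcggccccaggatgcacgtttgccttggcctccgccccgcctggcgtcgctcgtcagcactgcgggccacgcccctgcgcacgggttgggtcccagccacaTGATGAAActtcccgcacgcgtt

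Each of the 6 arrays gave 1 intensity for each of 34760 probe sets, with array medians between 100.9 and 109.1. Foxo1 had a mean normalised intensity of 646 ± 127 in untreated and 134 ± 15.3 in tamoxifen samples (SD, n = 3), with a limma adjusted p of 0.0178 for its log2 fold change of -2.13. This call held with an array left out only without untreated 1 (limma adjusted p of 0.0276), and not with the replicate number as a block (0.0936), without both number 1 arrays (0.107) or, narrowly, with median scaling (0.05003). The log2 fold change lay between -2.26 and -1.83 in the fits tried. The sources used here do not say whether its probe set lies in the deleted part. Of 8 B lineage markers 7 were measured and all 7 lay above the lowest array median. Their summed deposited intensity ran from 12031 to 14112 in untreated and from 14217 to 15498 in tamoxifen samples. The markers did not share a sign: Ebf1, a factor of early B cell identity, had a log2 fold change of -0.51 with lower values in every tamoxifen sample, Blnk had 0.03, and the other 5 were positive, from 0.19 to 0.52. None of the 7 passed the adjusted test, and 6 had an unadjusted limma p under 0.05, where 5.15% of all genes had such a p. Markers of T cells and of myeloid cells lay below the lowest array median in 4 of 5 and 6 of 7 cases. Their sums were 267 to 349 against 264 to 330 for T cells and 444 to 505 against 449 to 472 for myeloid cells. Of the erythroid and megakaryocyte markers 2 of 4 lay below it, with sums of 303 to 350 against 285 to 317. Of the NK, plasma and stromal markers 5 of 7 did, with sums of 613 to 744 against 585 to 689. Klrb1c, an NK marker, had a log2 fold change of -0.19 at an unadjusted limma p of 0.0197. It was dim, with mean normalised intensities of 56.8 in untreated and 48.0 in tamoxifen samples. Ncr1, the other NK marker, had a log2 fold change of -0.07 with overlapping groups. In bulk RNA, fewer cells of a type and less RNA per cell cannot be told apart, and the part of these marker differences in the results below was not tested.

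Between untreated and tamoxifen samples no gene of the group passed the test, and most values were lower in tamoxifen by small amounts. The test was limma on quantile normalised log2(intensity + 16), with p-values adjusted by Benjamini-Hochberg over 34760 probe sets, and 0.05 was the threshold. It called 0 of the 35 members (lowest limma adjusted p of 0.795, for Phgdh) where it called 0.0575% of all probe sets (20) and 0.0853% of all 19937 genes (17). The log2 fold change, tamoxifen minus untreated, was negative in 31 of 35 members, against 55.5% of all genes and 53.7% of the 10611 genes at or above the median brightness, a range that holds 34 of the members. Its median was -0.09 over the members and -0.01 over all genes. All members were read on the same 6 arrays, so 31 genes are not 31 independent observations.

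**Figure D1:**
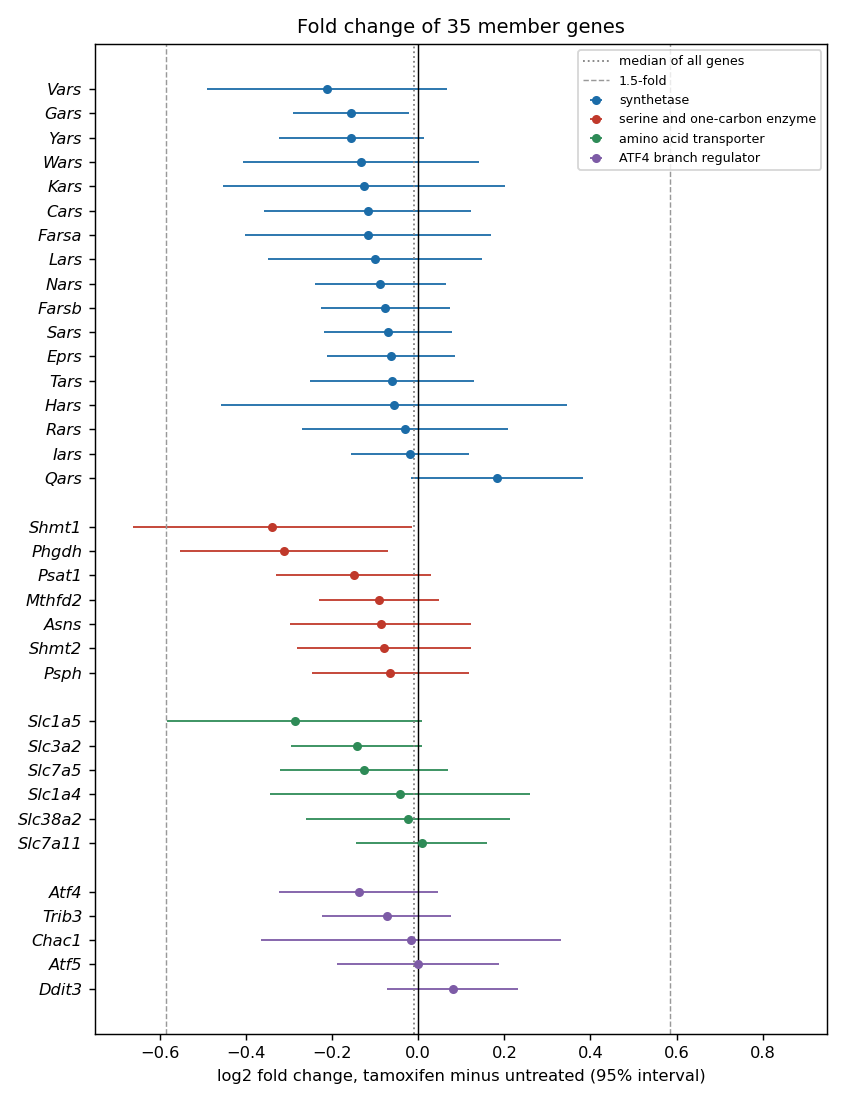
Log2 fold change (tamoxifen minus untreated) of the 35 genes by role, with 95% intervals of the moderated fit. The dotted line is the median of all genes (-0.01) and the dashed lines mark 1.5-fold. In 31 genes the point lies left of 0, and the interval leaves the 1.5-fold lines only for Shmt1.

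The fit gave bounds for most of these values. The standard error of a member's log2 fold change ran from 0.06 to 0.17, and its 95% interval (not adjusted for the number of genes) stayed within 1.5-fold in either direction for 33 of 34 members and within 2-fold for all 34, leaving out Slc7a11, which was too dim for its interval to bound a change. The exception was Shmt1, with a lower bound of -36.8%. Leaving out 1 array moved the log2 fold change of 26 of the 35 members by over 1.5 times or across 0, and the 9 others were Gars, Farsb, Nars, Phgdh, Shmt1, Mthfd2, Slc3a2, Slc1a5 and Atf4. At an unadjusted p under 0.05 there were 3 members, Phgdh, Shmt1 and Gars, all with lower values in tamoxifen. That is 3 of 35, where 5.15% of all genes had such a p and 2.19% had it with lower values in tamoxifen. Leaving out 1 array moved this count to 5 without untreated 1, 1 without untreated 3 and 0 without tamoxifen 2, and it was 2 without each of the other 3 arrays.

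The lowest log2 fold changes of the group were those of the serine enzymes Shmt1 and Phgdh, followed by the transporter Slc1a5 (-0.29). Phgdh, which commits the glycolytic intermediate 3-phosphoglycerate to serine synthesis, had normalised intensities (the quantile normalised value with the added 16 taken off, used for all values by sample here) of 541, 444 and 427 in untreated 1, 2 and 3 and 362, 367 and 394 in tamoxifen 1, 2 and 3. The groups did not overlap, and untreated 1 stood highest. Its log2 fold change was -0.31 ± 0.10 (SE), a difference of -19.4% with a 95% interval of -31.8% to -4.72% and an unadjusted limma p of 0.0192. Without both number 1 arrays the log2 fold change was -0.18, a check added after the data were seen. A second probe set that lists Phgdh together with another gene was not used.

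Shmt1, the cytosolic serine hydroxymethyltransferase that splits serine into glycine and a one-carbon unit, had 518, 409 and 424 in untreated and 417, 320 and 323 in tamoxifen samples. Tamoxifen 1 lay among the untreated values, and the highest array of each group was number 1. The log2 fold change was -0.34 ± 0.13 (SE), or -20.9% with a 95% interval of -36.8% to -1.03%, and an unadjusted limma p of 0.0427. Without tamoxifen 1 it was -0.45 and without untreated 1 it was -0.23.

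The other steps of serine synthesis differed less. Psat1, the aminotransferase after Phgdh, had 1294, 1485 and 1345 in untreated and 1292, 1197 and 1219 in tamoxifen samples, with a log2 fold change of -0.15 ± 0.07 (SE). The groups were separated by the gap between untreated 1 and tamoxifen 1 alone, and they overlapped in the deposited intensities. Psph, the phosphatase that releases serine, had 543, 510 and 481 in untreated and 511, 455 and 500 in tamoxifen samples, with a log2 fold change of -0.06 ± 0.08 (SE) and overlapping groups.

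Mitochondrial one-carbon enzymes were close to the middle of the group. Shmt2, the mitochondrial counterpart of Shmt1, had 1198, 1057 and 982 in untreated and 1029, 1020 and 1003 in tamoxifen samples, with a log2 fold change of -0.08 ± 0.08 (SE). Without untreated 1 it was -0.0021. Mthfd2, which carries the one-carbon unit on toward formate, had 2196, 2116 and 2211 in untreated and 1981, 2078 and 2060 in tamoxifen samples, with -0.09 ± 0.06 (SE). Mthfd2 was separated between the groups after normalisation, but not in the deposited intensities, and Shmt2 overlapped in both.

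Asns, asparagine synthetase, whose promoter is printed above, had 3288, 3802 and 3926 in untreated and 3249, 3536 and 3563 in tamoxifen samples. The number 1 array was the lowest of each group, the reverse of Shmt1, and the groups overlapped. Its log2 fold change was -0.09 ± 0.09 (SE), with a 95% interval of -18.6% to 8.95%. All 7 enzymes thus had a negative log2 fold change, from -0.34 to -0.06 with a median of -0.09, and 0 passed the test.

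**Figure D2:**
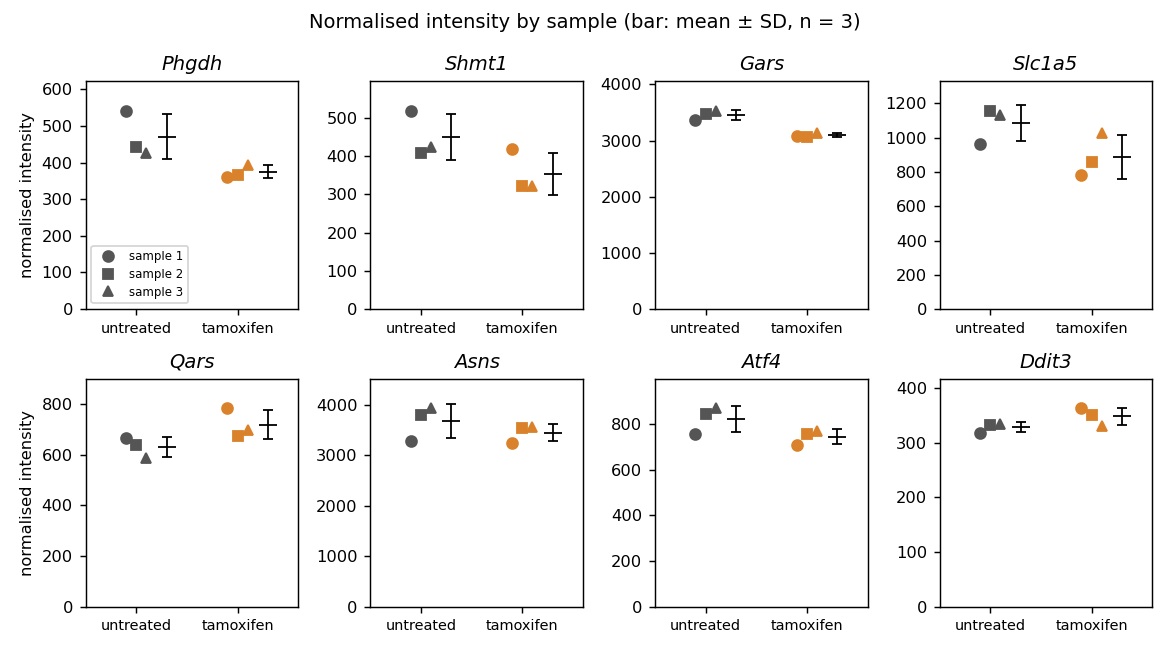
Normalised intensity (vertical axis, linear, from 0) of 8 genes in each sample, with the marker shape giving the sample number and the bar the mean ± SD (n = 3). Phgdh and Gars lie lower and Qars higher in every tamoxifen sample, while Shmt1, Slc1a5, Asns, Atf4 and Ddit3 overlap between the groups.

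Of the 17 synthetases measured, 16 had a negative log2 fold change, from -0.21 to -0.02, and Qars alone was positive. The median was -0.09. Gars, the glycyl-tRNA synthetase, had 3365, 3473 and 3531 in untreated and 3090, 3072 and 3136 in tamoxifen samples. All 3 tamoxifen values lay below all untreated values, in the deposited intensities as well. The log2 fold change was -0.16 ± 0.06 (SE), or -10.3% with a 95% interval of -18.2% to -1.50%, and an unadjusted limma p of 0.0290.

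Vars, the valyl-tRNA synthetase, had the lowest log2 fold change among the synthetases, -0.21 ± 0.12 (SE), and this value rested in part on 1 array. Its values were 786, 628 and 610 in untreated and 592, 526 and 615 in tamoxifen samples, and without untreated 1 the log2 fold change was -0.10. Yars, the tyrosyl-tRNA synthetase, had 660, 643 and 643 in untreated and 619, 588 and 538 in tamoxifen samples. Its groups did not overlap after normalisation but did in the deposited intensities, and its log2 fold change was -0.16 ± 0.07 (SE).

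Wars, the tryptophanyl-tRNA synthetase, is also known as an interferon-induced gene. Its values were 562, 448 and 445 in untreated and 486, 415 and 418 in tamoxifen samples, a log2 fold change of -0.13 ± 0.11 (SE), and again the number 1 array was the highest of each group. Without untreated 1 it was -0.03.

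Qars, the glutaminyl-tRNA synthetase, went the other way. It had 664, 637 and 587 in untreated and 782, 673 and 697 in tamoxifen samples, a log2 fold change of 0.18 ± 0.08 (SE) at an unadjusted limma p of 0.0662 and a limma adjusted p of 1.00. The 3 tamoxifen values lay above the untreated values after normalisation, by a narrow gap, and overlapped in the deposited intensities. It was positive in every fit tried, between 0.12 and 0.23.

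The synthetases nearest to 0 were Iars, Rars and Hars. Iars, for isoleucine, had 4563, 4560 and 4588 in untreated and 4668, 4390 and 4472 in tamoxifen samples, a log2 fold change of -0.02 ± 0.06 (SE). A dimmer second probe set of Iars gave -0.11 ± 0.08 (SE). Rars, for arginine, had 1966, 1940 and 1854 in untreated and 2172, 1781 and 1716 in tamoxifen samples, at -0.03 ± 0.10 (SE). Hars, for histidine, had 1054, 803 and 764 in untreated and 1018, 753 and 747 in tamoxifen samples, at -0.06 ± 0.17 (SE), the widest error of the group. In Hars the number 1 array of each group exceeded the other 2 by far more than the groups differed.

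The remaining synthetases all overlapped between the groups after normalisation. Kars (lysine) had a log2 fold change of -0.13 ± 0.14 (SE), Cars (cysteine) -0.12 ± 0.10 and Lars (leucine) -0.10 ± 0.10. With an array left out Kars ran from -0.25 to -0.02, Cars from -0.18 to -0.04 and Lars from -0.21 to -0.04. The subunits of the phenylalanyl enzyme, Farsa and Farsb, had -0.12 ± 0.12 and -0.08 ± 0.06 (SE). Nars (asparagine) had -0.09 ± 0.06, Sars (serine) -0.07 ± 0.06, Eprs (glutamate and proline) -0.06 ± 0.06 and Tars (threonine) -0.06 ± 0.08 (SE).

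Over the whole group, untreated and tamoxifen values did not overlap in 7 members, 6 with lower tamoxifen values and Qars with higher. The 6 are Phgdh, Psat1, Mthfd2, Gars, Yars and Slc3a2. Lower values without overlap were seen in 5.68% of all genes and higher values in 5.56%. In the deposited intensities, before quantile normalisation, 4 members were without overlap, Phgdh, Gars, Nars and Atf4, all lower. On that scale 4.77% of all genes were lower and 4.53% higher without overlap. Phgdh and Gars were the 2 members separated on both scales.

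Of the 6 transporters, 5 had a negative log2 fold change, with a median of -0.08, and 0 passed the test. Slc1a5, the glutamine carrier ASCT2, had 963, 1157 and 1132 in untreated and 780, 857 and 1030 in tamoxifen samples. Tamoxifen 3 lay above untreated 1, and the log2 fold change was -0.29 ± 0.12 (SE), or -18.0% with a 95% interval of -33.2% to 0.66%. It ran from -0.40 without tamoxifen 3 to -0.20 without tamoxifen 1.

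Slc7a5 and Slc3a2 form the heterodimeric carrier of large neutral amino acids, and Slc3a2 is its shared heavy chain. Slc3a2 had 1453, 1437 and 1373 in untreated and 1315, 1222 and 1323 in tamoxifen samples, a log2 fold change of -0.14 ± 0.06 (SE), with groups apart after normalisation only. Slc7a5 had 2524, 2370 and 2474 in untreated and 2067, 2230 and 2465 in tamoxifen samples, -0.13 ± 0.08 (SE), with tamoxifen 3 among the untreated values. The 95% interval included 0 for both chains.

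Slc1a4, the neutral carrier ASCT1, had 185, 255 and 252 in untreated and 209, 225 and 231 in tamoxifen samples, -0.04 ± 0.13 (SE). Slc38a2, the carrier SNAT2, had 2719, 2650 and 2760 in untreated and 2307, 2830 and 2902 in tamoxifen samples, -0.02 ± 0.10 (SE), with tamoxifen 1 the lowest of all 6. Slc7a11, the cystine carrier, was dim, at 30.7, 33.7 and 30.3 in untreated and 32.5, 29.9 and 33.0 in tamoxifen samples, below the lowest lower quartile of any array (43.3). Its log2 fold change of 0.01 ± 0.06 (SE) therefore understates any difference, since the added 16 shrinks changes of dim genes.

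The ATF4 branch itself showed no gene past the test and no gene whose groups were apart after normalisation. Atf4 had 756, 842 and 868 in untreated and 706, 757 and 771 in tamoxifen samples, a log2 fold change of -0.14 ± 0.08 (SE) and a 95% interval of -20.0% to 3.21%. Its untreated 1 value lay just below tamoxifen 2 and also below tamoxifen 3, whereas the deposited intensities were apart. ATF4 is controlled mainly through translation of its mRNA, so its transcript is a partial readout of its activity.

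Atf5, a related factor under like translational control, had 274, 235 and 240 in untreated and 239, 260 and 250 in tamoxifen samples, a log2 fold change of 0.00 ± 0.08 (SE). Ddit3, which encodes CHOP, a factor of prolonged stress, had 318, 332 and 335 in untreated and 363, 351 and 331 in tamoxifen samples, 0.08 ± 0.06 (SE). Tamoxifen 3 lay among the untreated values of Ddit3, and its 95% interval was -4.84% to 17.4%.

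Trib3, a pseudokinase induced by ATF4 and CHOP, had 161, 155 and 169 in untreated and 159, 150 and 150 in tamoxifen samples, -0.07 ± 0.06 (SE). Chac1, a glutathione-degrading enzyme of the same branch, had 278, 300 and 378 in untreated and 277, 298 and 368 in tamoxifen samples, -0.02 ± 0.15 (SE). The values of Chac1 varied more within each group than between them, and in the 2 groups they ran alike by sample number. Of the 5 ATF4 branch genes 3 were negative and 2 positive, with a median of -0.02.

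The genes with a C/EBP-ATF core in the promoter window had log2 fold changes like those of the group, without a test of the difference. They ran from -0.16 (Gars) to 0.01 (Slc7a11), with a median of -0.06 and 8 of 9 negative. Over the 17 matched members without the core the median was -0.08, with 14 of 17 negative.

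**Figure D3:**
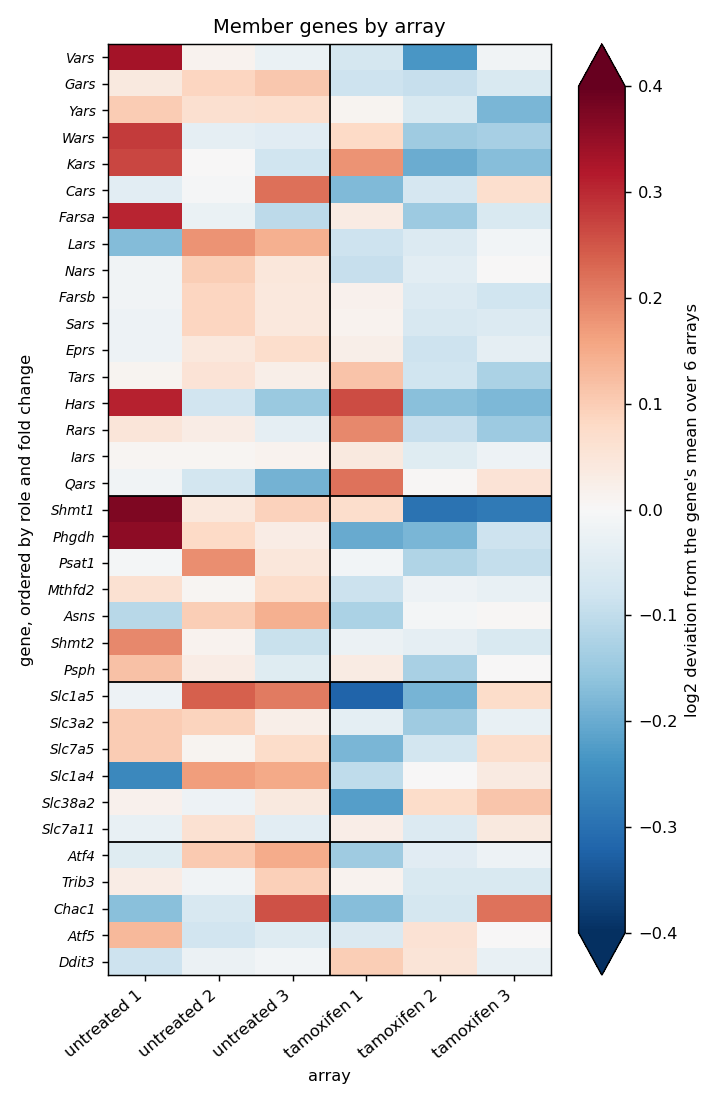
Deviation of each gene (rows, by role and fold change) in each array (columns) from its mean over the 6 arrays, on the log2 scale, with red above and blue below the mean. Untreated 1 is the reddest column for Vars, Shmt1, Phgdh and Hars, and tamoxifen 2 holds the lowest value in 14 of the 35 rows.

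Read by array, the lean of the group was small and uneven. The median deviation of the 35 members from their own means was 0.02, 0.03 and 0.04 in untreated 1, 2 and 3 and -0.01, -0.07 and -0.03 in tamoxifen 1, 2 and 3. The groups were apart by the narrow distance between untreated 1 and tamoxifen 1. For the 17 synthetases tamoxifen 1 had a positive median deviation, 0.02, inside the range of the untreated arrays (0.01 to 0.03), against -0.08 and -0.06 in tamoxifen 2 and 3. For the 7 serine and one-carbon enzymes the untreated arrays had 0.12, 0.04 and 0.05 and the tamoxifen arrays -0.02, -0.12 and -0.06.

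A pattern by sample number ran through the whole array data and was about as frequent in the members as in all genes. In 6 members, Farsa, Hars, Kars, Rars, Wars and Psph, the number 1 arrays of the 2 groups were the 2 highest of 6. That is 17.1% of the members, and the same held for 15.7% of all genes. For another 5 members (14.3%) they were the 2 lowest, against 9.02% of all genes. The labels do not say what the number stands for, and its part in these values was not tested.

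Neighbouring pathways, taken from lists of related genes, had 0 genes past the test as well, with counts that varied by pathway. The list of mitochondrial tRNA synthetases, which charge tRNA for the mitochondrial ribosome, had 10 of 19 measured genes negative. Its median was -0.02, where the 17 synthetases of the group had -0.09, and this difference was not tested. By array, the median deviation of the mitochondrial list was highest in the number 1 arrays, 0.07 in untreated 1 and 0.08 in tamoxifen 1. The list included Qrsl1 (0.08), Gatb (-0.04) and Gatc (0.03), which are subunits of an amidotransferase and not synthetases. Tars2, the mitochondrial threonine enzyme, had the lowest unadjusted limma p (0.0317), with normalised intensities of 353, 330 and 313 in untreated and 281, 280 and 304 in tamoxifen samples and a log2 fold change of -0.19 ± 0.07 (SE). The log2 fold changes of Hars2, Cars2 and Pars2, next in order of p, were 0.10, 0.13 and -0.13. Without untreated 1 that of Pars2 was 0.02.

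The multi-synthetase complex and tRNA handling list had 4 of 6 negative with a median of -0.08. Xpot, the exporter of tRNA from the nucleus, had -0.15 ± 0.09 (SE), Aimp1, a scaffold of the complex, 0.11 ± 0.09 and Eef1e1, another scaffold, -0.13 ± 0.11. Aimp2, the third scaffold, had -0.22 ± 0.25 (SE) and rested on untreated 1. Its values were 1159, 668 and 608 in untreated and 802, 604 and 616 in tamoxifen samples, and without untreated 1 the log2 fold change was 0.07.

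Upstream of ATF4, the eIF2 kinases, eIF2 subunits and phosphatases had 11 of 14 negative and a median of -0.06. Eif2b3, a subunit of the exchange factor that recharges eIF2, had 609, 631 and 580 in untreated and 583, 504 and 483 in tamoxifen samples, a log2 fold change of -0.21 ± 0.09 (SE) and an unadjusted limma p of 0.0466. Eif2ak4, the kinase GCN2 that senses uncharged tRNA, had -0.13 ± 0.12 (SE), Eif2ak2, the kinase PKR, -0.08 ± 0.07, and Ppp1r15a, the stress-induced eIF2 phosphatase subunit GADD34, -0.09 ± 0.07.

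Other ATF4 targets and bZIP partners had 15 of 21 negative and a median of -0.08, close to that of the members. Eif4ebp1, a brake on translation initiation, had -0.19 ± 0.09 (SE), Slc6a9, a glycine carrier, -0.19 ± 0.10 and Aldh18a1, of proline synthesis, -0.13 ± 0.07. Vegfa, an angiogenic factor with many inputs beside ATF4, had the highest value of the list. It had 879, 1135 and 1273 in untreated and 1274, 1527 and 1639 in tamoxifen samples, a log2 fold change of 0.44 ± 0.16 (SE) at an unadjusted limma p of 0.0294 and a limma adjusted p of 0.882.

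In one-carbon metabolism beside the serine pathway, 9 of 14 were negative with a median of -0.03. Mthfd1l, the mitochondrial enzyme that completes formate production after Mthfd2, had 1417, 1427 and 1454 in untreated and 1257, 1218 and 1292 in tamoxifen samples. The groups did not overlap, and the log2 fold change was -0.19 ± 0.06 (SE), with an unadjusted limma p of 0.0149 and a limma adjusted p of 0.731. Sfxn1, the carrier of serine into mitochondria, had -0.13 ± 0.07 (SE), with 1689, 1595 and 1593 in untreated and 1586, 1429 and 1437 in tamoxifen samples. Amt, of the glycine cleavage system, and Srr, serine racemase, had log2 fold changes of 0.13 and 0.11.

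The ATF6 and XBP1 arms of the unfolded protein response, which raise chaperones of the endoplasmic reticulum without ATF4, had mostly positive values. In this list 12 of 15 genes were positive and the median was 0.08. The negative genes were Herpud1 (-0.16), Hyou1 (-0.06) and Sdf2l1 (-0.05), and Ern1, Hsp90b1 and Creld2 lay close to 0, each at 0.01. An unadjusted limma p under 0.05 was seen in 2 of 15, both with higher values in tamoxifen, where 2.96% of all genes had this. Dnajb9, a cochaperone induced by XBP1, had 184, 250 and 175 in untreated and 295, 258 and 282 in tamoxifen samples, a log2 fold change of 0.44 ± 0.14 (SE) at an unadjusted limma p of 0.0152 and a limma adjusted p of 0.733. Edem1, of the degradation of misfolded glycoproteins, had 406, 451 and 403 in untreated and 506, 495 and 459 in tamoxifen samples, 0.21 ± 0.07 (SE). Groups did not overlap in 5 of the 15, Dnajb9, Edem1, Sel1l (0.15), Dnajc3 (0.10) and Hspa5 (0.08), all higher in tamoxifen, against 5.56% of all genes. In the deposited intensities this held for 2 of the 15, Dnajb9 and Dnajc3, against 4.53% of all genes. By array the median deviation of the list was -0.03, -0.05 and -0.03 in untreated 1, 2 and 3 and 0.08, -0.03 and 0.02 in tamoxifen 1, 2 and 3. Tamoxifen 2 thus lay inside the untreated range, and tamoxifen 1 held the highest value in 8 of the 15 genes. The difference between this list and the members was not tested.

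**Figure D4:**
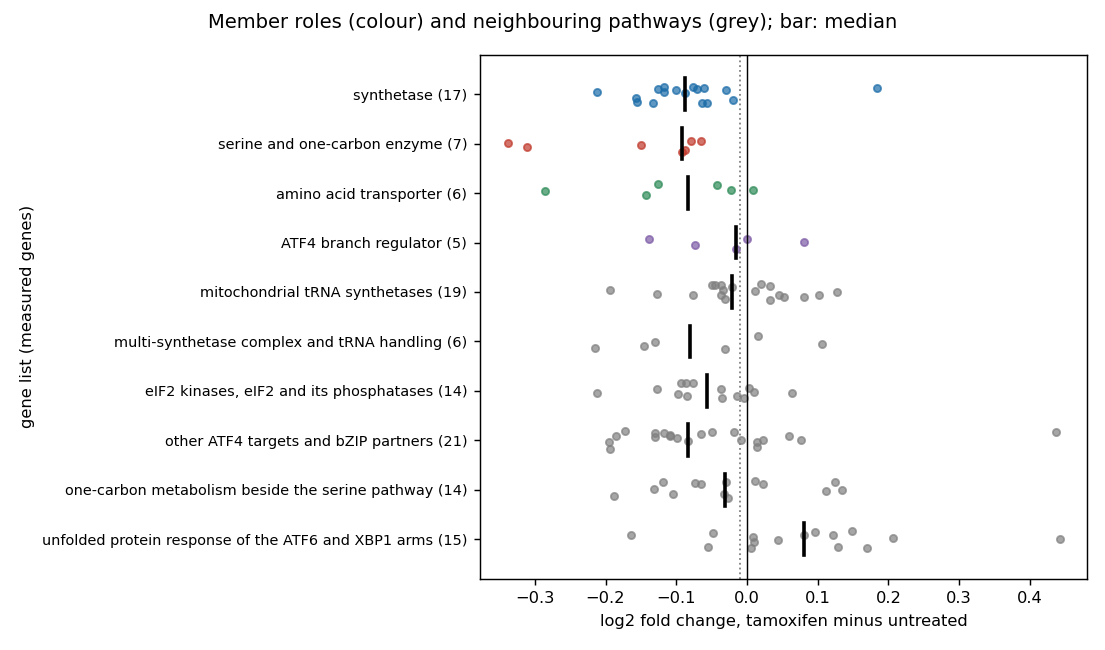
Log2 fold change (tamoxifen minus untreated) of each measured gene in the 4 roles of the group (colour) and 6 neighbouring lists (grey), with the number of measured genes in brackets and a bar at the median. The dotted line is the median of all genes (-0.01). Medians lie between -0.09 and -0.02 for the 4 roles and at 0.08 for the ATF6 and XBP1 arms.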

How the data were processed

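Total RNA of 6 samples was hybridised to gene-level arrays, per the labels' protocols after purification on columns and conversion of 200 ng to biotinylated cRNA. The deposited intensity values are linear, 1 per probe set and array. The authors' background correction, summary and normalisation: not given in the sources used here. Groups and sample numbers come from the titles.

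Intensities were converted to log2(value + 16), which understates changes of dim genes, quantile normalised and fitted by limma 3.58.1 (lmFit, then eBayes) under R 4.3.3, with two-sided tests and 95% intervals of the moderated fit. The platform table gave 21640 of 34760 probe sets 1 symbol, 1321 several and 11799 none. The brightest probe set stood for a gene. The steps were tested on simulated data. Members and lists were chosen with earlier results of these data known. Named genes were all members, with values by sample for the non-synthetases, for members at an unadjusted p under 0.05 and for the 4 lowest and 4 highest synthetases, and from each other list up to 4 genes of lowest p. Hspa5, Herpud1, Hyou1, Sdf2l1, Ern1, Hsp90b1, Creld2, Ncr1 and Mars1 were added after their values were seen. Alternatives were a replicate block, each array left out, median scaling, a filter on dim probe sets, pseudocounts of 1 and 64, averaged probe sets and an intensity trend with robust variances.

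Same-numbered samples had correlated deviations of 0.256, 0.0547 and 0.302, and differently numbered samples had values from -0.420 to 0.248. These values do not settle whether the numbers pair the samples. The main fit did not pair them, and the replicate block was an alternative. Figures were drawn with matplotlib 3.10.9.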

Additional observations from a re-analysis of the deposited data

How the results depend on the processing

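The count of members past the threshold was 0 in every fit tried, and 29 to 32 of the members had a negative log2 fold change. With an array left out, the member median ran from -0.10 to -0.073, members at an unadjusted p under 0.05 ran from 0 to 5 and probe sets past the threshold from 0 to 6, where all arrays gave 3 and 20. Median scaling gave 1 such member, 3 probe sets and a member median of -0.062, and a pseudocount of 64 gave 5 members. Probe sets past the threshold were 11 with a pseudocount of 1, 12 with the intensity trend, 46 with dim probe sets left out and 73 genes with probe sets averaged. The replicate block left 0 probe sets past limma's threshold (2525 at an unadjusted p under 0.05) and 0 members, with 4 members at an unadjusted p under 0.05, Shmt1 having the lowest adjusted p, 0.321. Without both number 1 arrays, an alternative chosen after seeing the data, limma called 0 probe sets (2488 at an unadjusted p under 0.05), and the member median was -0.12.

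Some genes changed sign, among them Farsa, Pars2 and Aimp2, which were not near 0 with all arrays (-0.12, -0.13 and -0.22). With an array left out, Farsa ran from -0.20 to 0.0064, Hars from -0.20 to 0.083, Rars from -0.13 to 0.034, Slc7a11 from -0.010 to 0.041, Slc1a4 from -0.18 to 0.031, Slc38a2 from -0.083 to 0.081, Atf5 from -0.038 to 0.064, Chac1 from -0.13 to 0.11, Pars2 from -0.25 to 0.020 and Aimp2 from -0.39 to 0.068. Without both number 1 arrays Slc7a11 was -0.016, Slc38a2 0.084 and Atf5 0.091. Median scaling gave Chac1 0.027, and a pseudocount of 64 gave Atf5 -0.00016. The causes were not tested, and 3 arrays a group limit the precision.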
